A study of Homo sapiens with 6 samples.

Results

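The genes examined were the interferon regulatory factors IRF1, IRF2, IRF3, IRF4, IRF5, IRF7, IRF8 and IRF9 and the co-repressors IRF2BP1 and IRF2BP2, taken as every row of the count table that carried one of these 10 symbols, out of 61541 Ensembl genes. Transcripts were measured by bulk RNA-seq in H9 cells, a single human cutaneous T-cell lymphoma line labelled as wild type and kept in RPMI with fetal bovine serum. The cells received the vehicle (DMSO, 3 libraries) or AZD4573, a selective inhibitor of the kinase CDK9, at 50 nM for 4 h (3 libraries), and the comparison asked which transcripts depended on CDK9. The labels do not say whether libraries of a group came from separate cultures, so the p-values measure only the spread between these libraries. Total counts ranged from 70367303 to 76571157 with DMSO and from 52101868 to 63795185 with AZD4573.

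Interferon regulatory factors are transcription factors that share an N-terminal DNA-binding domain and bind GAAA-rich elements in the promoters of interferons and interferon-stimulated genes. IRF3, IRF5 and IRF7 are activated by kinases downstream of pattern-recognition receptors, IRF9 is the DNA-binding part of the complex ISGF3 that carries the type I interferon signal, and IRF4 and IRF8 act in lymphoid and myeloid cells together with partner factors. IRF1 is itself induced by interferon-γ and is opposed at shared sites by IRF2, which recruits the co-repressors IRF2BP1 and IRF2BP2. CDK9 releases paused RNA polymerase II, and short-lived transcripts are the first to fall when it is inhibited.

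The promoters of 7 of the 10 genes (IRF1, IRF4, IRF5, IRF8, IRF9, IRF2BP1 and IRF2BP2) were matched in a RefSeq table on GRCh38.p14, and the 250 bases before each start were searched on both strands. The palindromic STAT element GAS (TTCNNNGAA) was found in IRF1, IRF9 and IRF2BP1, and in 6.78% of all 27305 promoters of the same length. The windows around these 3 elements are shown because they mark the members whose promoter holds the letters bound by activated STAT dimers. Each is written in the direction of transcription, with the GAS letters in capitals. The IRF1 window is chr5:132490869-132490957 on the minus strand, with the GAS 124 to 116 bases before the start. The IRF9 window is chr14:24161192-24161220 on the plus strand, with the GAS 63 to 55 bases before the start, and it lies within an exon of an upstream gene on the same strand, ENSG00000259529. The IRF2BP1 window is chr19:45886170-45886258 on the minus strand, with the GAS 57 to 49 bases before the start.
IRF1: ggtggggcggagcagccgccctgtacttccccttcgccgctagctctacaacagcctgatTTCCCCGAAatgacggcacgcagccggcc
IRF9: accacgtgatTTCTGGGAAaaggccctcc
IRF2BP1: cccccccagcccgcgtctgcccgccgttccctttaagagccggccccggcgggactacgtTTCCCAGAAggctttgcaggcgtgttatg

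The remaining motifs gave 1 match. A TATA box (TATAAA, in 11.1% of all promoters) lay 32 to 27 bases before the start of IRF4. The letters GAAANNGAA, a pair of half-sites of the interferon-stimulated response element (7.06% of all promoters), and GGAANNNCC, a kappaB half-palindrome (17.1%), were in none of the 7 windows. A match is a description of letters and not a measured binding site.

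Upon AZD4573 treatment, 7 of the 10 genes were lower and 1 was higher at an adjusted p under 0.05 (quasi-likelihood test of edgeR, Benjamini-Hochberg adjusted for 17678 tested genes), and 2 did not pass. Across all genes tested, 37.4% were lower and 37.3% were higher by the same rule. With a fold change of at least 1.5 as well, 3 members were lower (IRF4, IRF9 and IRF2BP1, against 23.7% of all genes) and 1 was higher (IRF5, against 22.7%). The median log2 fold change was -0.44 over the members and 0.03 over all genes. Groups did not overlap for 8 of the 10 members, where 77.8% of all genes tested showed the same separation. All members passed the filter on low counts, but IRF4 did so only through the DMSO libraries, where it is high, so that its place among the lower genes is partly set by the filter. Of the 9 members without it, 6 were lower, 2 were lower by fold, 7 did not overlap, and the median was -0.42.

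Fold changes are relative to the TMM scaling, which places the median of all genes near 0. The 13 mitochondrially encoded mRNAs, which RNA polymerase II does not transcribe, took 3.13% ± 0.0929 of all counts in the DMSO libraries and 4.85% ± 0.162 in the AZD4573 libraries (SD, n = 3). Scaling to these mRNAs moved the median of all genes from 0.03 to -0.71 and that of the members to -1.18, and 9 members were then lower by fold, as were 9433 of all genes tested. This scaling assumes that AZD4573 left the amount of mitochondrial mRNA per cell unchanged, which was not measured. In bulk RNA, fewer cells of a type cannot be told apart from less RNA per cell.

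**Figure D1:**
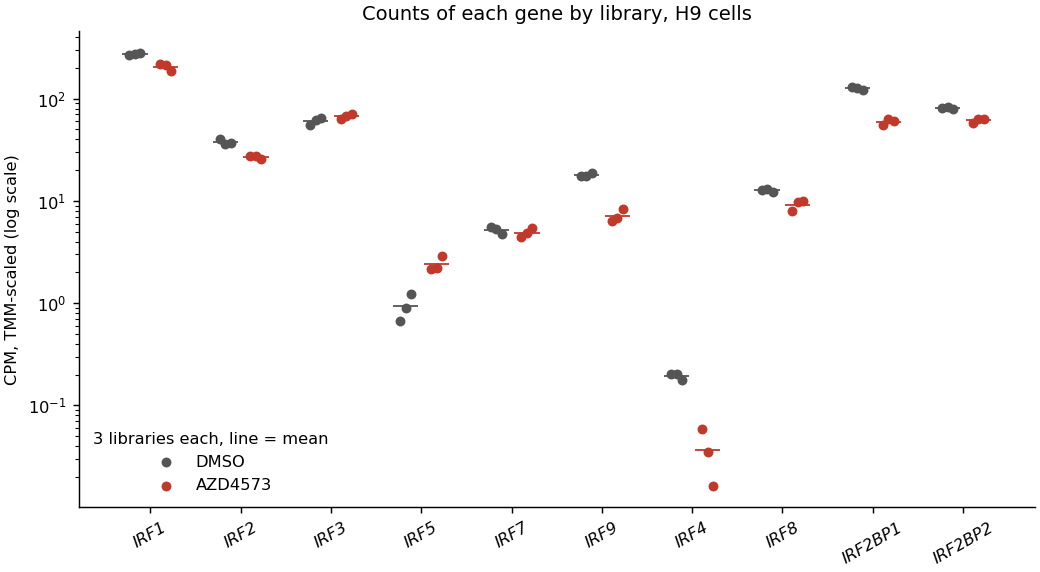
TMM-scaled CPM (log axis) of each of the 10 genes in the 3 DMSO (grey) and 3 AZD4573 (red) libraries, with the mean as a line. IRF5 lies higher with AZD4573, IRF3 and IRF7 overlap between groups, and IRF4 is at 3, 2 and 1 counts in the AZD4573 libraries.

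IRF9, the DNA-binding subunit of ISGF3, fell to 40.0% of its DMSO level. It was measured at 17.4, 17.6 and 18.8 CPM (the read count normalised to the TMM-scaled total of its library) with DMSO and at 6.34, 6.84 and 8.29 CPM with AZD4573. Every AZD4573 library lay below every DMSO library. The log2 fold change was -1.32 ± 0.0941 (SE, n = 3 per group, edgeR adjusted p = 2.5e-08). This size depends on how reads were split between overlapping genes. Of 6471 exonic bases of IRF9, 1544 are shared with the readthrough gene ENSG00000259529 on the same strand, which stood at 6.31 ± 0.568 CPM with DMSO and 7.23 ± 0.770 CPM with AZD4573 (SD, n = 3, log2 fold change 0.20, adjusted p = 0.117). Both genes together gave 24.3 ± 1.26 CPM with DMSO and 14.4 ± 0.539 CPM with AZD4573 (SD, n = 3), still without overlap between groups. The readthrough gene also has exon sequence before the start of IRF9, so the sum counts reads that may not be of IRF9. In the fit with summed counts the log2 fold change of the sum was -0.75 (edgeR adjusted p = 1.8e-07, where the range over all alternatives for IRF9 was 1.7e-50 to 1.5e-06).

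IRF1, an activator of antigen presentation and antiviral genes, had the highest level of the 10 genes per base of canonical mRNA. Its CPM was 265, 276 and 280 with DMSO and 218, 211 and 186 with AZD4573, so that all 3 treated libraries were lower. The log2 fold change was -0.42 ± 0.0555 (SE, n = 3 per group, edgeR adjusted p = 1.3e-05), which left 75.0% of the DMSO level. Of 12265 exonic bases of IRF1, 2805 overlap the antisense gene IRF1-AS1, which was at 7.62 ± 0.454 CPM with DMSO and 7.64 ± 0.928 CPM with AZD4573 (SD, n = 3). A further 486 bases overlap ENSG00000283782 on the opposite strand (4.03 ± 1.85 and 7.80 ± 2.17 CPM). Reads of antisense partners cannot be told apart when strand is ignored in counting.

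IRF2, the repressor that competes with IRF1, was lower as well. It stood at 39.8, 36.2 and 36.8 CPM with DMSO and at 27.2, 27.3 and 25.5 CPM with AZD4573. The groups did not overlap, and the log2 fold change was -0.50 ± 0.0585 (SE, n = 3 per group, edgeR adjusted p = 3.9e-06). The balance of activator and repressor was therefore measured within each library, where no scaling between libraries enters. The ratio of IRF1 to IRF2 counts was 6.66, 7.62 and 7.60 with DMSO and 8.04, 7.73 and 7.28 with AZD4573. The groups overlapped, and their log2 ratios differed by 0.08 (two-sided exact permutation test, p = 0.4, where 3 against 3 libraries cannot go below 0.1).

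IRF2BP1, a RING-finger co-repressor recruited by IRF2, showed the lowest adjusted p of the 10 genes. Its level was 130, 128 and 122 CPM with DMSO and 55.3, 62.5 and 60.2 CPM with AZD4573. The treated libraries held 46.9% of the DMSO level, with a log2 fold change of -1.09 ± 0.0523 (SE, n = 3 per group, edgeR adjusted p = 6.4e-10). The level of its relative IRF2BP2 fell from 80.5, 82.5 and 79.3 CPM to 57.9, 63.9 and 62.7 CPM. The log2 fold change was -0.39 ± 0.0496 (SE, n = 3 per group, edgeR adjusted p = 7.4e-06), again without overlap. IRF2BP2 shares 693 of its 5377 exonic bases with the antisense transcript ENSG00000228830, which was at 2.95 ± 0.0765 CPM with DMSO and 2.22 ± 0.436 CPM with AZD4573 (SD, n = 3).

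The ratio of IRF2BP2 to IRF2BP1 counts was higher in every treated library than in any DMSO library. It was 0.621, 0.647 and 0.650 with DMSO and 1.05, 1.02 and 1.04 with AZD4573. The log2 ratios differed by 0.70 (two-sided exact permutation test, p = 0.1, the smallest p that 3 against 3 allows, adjusted p = 0.2 over both ratios). The plot of ratios shows both co-repressors nearly level in counts after treatment, since a ratio of counts is not corrected for transcript length. Per transcript length the mean ratio went from 0.305 to 0.494.

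**Figure D2:**
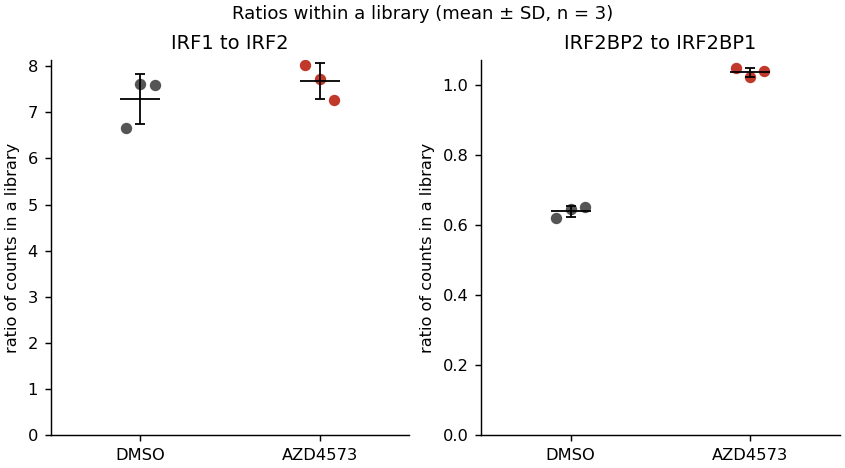
Ratio of counts within each library for IRF1 to IRF2 and for IRF2BP2 to IRF2BP1, with mean ± SD over 3 libraries per group and axes starting at 0. The IRF1 to IRF2 ratios overlap between groups, whereas the IRF2BP2 to IRF2BP1 ratios lie at 0.621 to 0.650 with DMSO and at 1.02 to 1.05 with AZD4573.

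IRF3, IRF5 and IRF7, the factors phosphorylated downstream of nucleic acid sensors and Toll-like receptors, did not move together. IRF3 was at 55.8, 62.4 and 64.6 CPM with DMSO and at 62.8, 67.1 and 70.6 CPM with AZD4573. The groups overlapped and the log2 fold change of 0.13 ± 0.0624 (SE, n = 3 per group, edgeR adjusted p = 0.0663) missed the threshold. The sign of this value turned to -0.60 under mitochondrial mRNA scaling (adjusted p = 3.2e-07), and over all alternatives it ranged from -0.60 to 0.18 (adjusted p from 3.2e-07 to 0.701). IRF3 passed as higher without DMSO replicate 3 (0.18, adjusted p = 0.0306) and without AZD4573 replicate 1 (0.18, adjusted p = 0.0280), and with at least 10 counts required in every library (0.17, adjusted p = 0.0216). The opposite-strand gene BCL2L12 shares 734 of the 3794 exonic bases of IRF3 and was at 34.5 ± 1.32 CPM with DMSO and 38.3 ± 0.560 CPM with AZD4573 (SD, n = 3).

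IRF7, the amplifier of the type I interferon response, was at 5.53, 5.27 and 4.71 CPM with DMSO and at 4.42, 4.82 and 5.37 CPM with AZD4573. These values overlapped, with a log2 fold change of -0.08 ± 0.113 (SE, n = 3 per group, edgeR adjusted p = 0.516). Under mitochondrial mRNA scaling it was -0.83 (adjusted p = 7.0e-06), and the adjusted p over all alternatives ranged from 7.0e-06 to 0.873.

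IRF5, a factor of Toll-like receptor signalling best known from myeloid and B cells, was the 1 member that rose. It had 53, 65 and 90 counts with DMSO (0.675, 0.887 and 1.22 CPM) and 111, 126 and 175 counts with AZD4573 (2.18, 2.21 and 2.87 CPM). Each treated library was above each DMSO library despite its smaller total. The log2 fold change was 1.39 ± 0.223 (SE, n = 3 per group, edgeR adjusted p = 7.4e-05), a 2.61-fold rise. Under mitochondrial mRNA scaling the change was 0.65 (adjusted p = 0.0112, with a range over all alternatives of 1.1e-10 to 0.0112). Summed over libraries, the ratio of shares of the total counts was 2.46 (exact 95% interval 2.07 to 2.92, counting error only).

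IRF4 and IRF8 are the lymphoid members, and both were lower with AZD4573. IRF4, known from plasma cells and activated T cells, was close to the limit of detection, with 16, 15 and 13 counts with DMSO and 3, 2 and 1 counts with AZD4573. The sums were 44 and 6 counts, a share 5.91-fold lower with AZD4573 (exact 95% interval 2.51 to 16.98, counting error only). The log2 fold change was -2.39 ± 0.586 (SE, n = 3 per group), with the largest standard error among the members. Since the filter let IRF4 pass through its high group alone, its p is taken from the fit without a filter, where the log2 fold change was -2.42 (edgeR adjusted p = 0.00585, with a range over all alternatives of 0.000176 to 0.0142). IRF8 was at 12.8, 12.9 and 12.2 CPM with DMSO and at 7.88, 9.65 and 9.89 CPM with AZD4573. The groups did not overlap and the log2 fold change was -0.47 ± 0.0908 (SE, n = 3 per group, edgeR adjusted p = 0.000386).

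**Figure D3:**
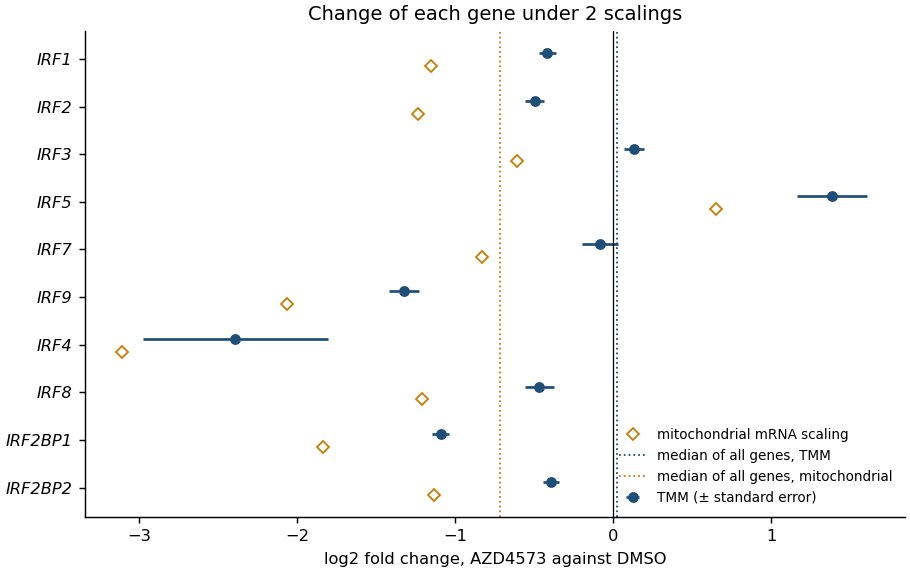
Log2 fold change of each gene upon AZD4573 treatment with TMM (filled circles, ± standard error, 3 libraries per group) and with scaling to the mitochondrial mRNAs (open diamonds), with the median of all genes under each scaling as a dotted line. IRF5 stays above 0 under both scalings, IRF3 changes sign, and the 8 others lie below the median of all genes under both.

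Markers of other cells were examined beside IRF5, IRF8 and IRF4. Of 13 T-cell markers, 12 were tested, 9 were higher and 2 lower, against 37.3% higher and 37.4% lower over all genes. Under mitochondrial mRNA scaling TRBC1 and TRAC alone stayed higher. The summed level of the 13 markers was 1756 to 1801 CPM with DMSO and 2251 to 2292 CPM with AZD4573, while CD2 was near 0.105 and 0.0120 CPM. The sum of 7 B-cell markers was 133 to 143 CPM with DMSO and 167 to 180 CPM with AZD4573. Most of it was CD79A and BLK, whereas CR2 was at 0 in all libraries and MS4A1 at means of 0.192 CPM with DMSO and 0.302 CPM with AZD4573. The 8 myeloid markers summed to 0.434 to 0.560 CPM with DMSO and 1.56 to 2.24 CPM with AZD4573, with S100A8 at 0. Of 4 myeloid markers tested, 3 were higher (37.3% of all genes tested were), namely MPO, CD14 and CD68, and under mitochondrial mRNA scaling MPO alone passed. MPO, the granule enzyme of neutrophils, had 0 counts in each DMSO library and 82, 59 and 41 counts with AZD4573. It passed the filter on low counts only through the AZD4573 libraries, where it is high, so that its call is partly set by the filter. The 5 plasmacytoid dendritic cell markers summed to 0.0682 to 0.204 and 0.157 to 0.508 CPM, with GZMB at 0. The part of these differences in the values of IRF4, IRF5 and IRF8 was not tested.

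Levels of different genes were compared per transcript length, as TPM (a share of the summed counts per base, computed with the length of the canonical mRNA). With DMSO the order was IRF1 (174 ± 8.40 TPM), IRF2BP1 (113 ± 3.03), IRF3 (86.6 ± 8.27), IRF2 (37.7 ± 1.10), IRF2BP2 (34.4 ± 1.21), IRF9 (25.0 ± 1.40), IRF8 (10.7 ± 0.373), IRF7 (6.09 ± 0.426), IRF5 (0.728 ± 0.225) and IRF4 (0.0831 ± 0.00662), each as mean TPM ± SD over 3 libraries. Neighbours in this order did not overlap between libraries. With AZD4573 IRF3 (79.2 ± 3.65 TPM) stood above IRF2BP1 (44.3 ± 2.52), and the libraries of IRF2 (22.4 ± 1.12) and IRF2BP2 (21.9 ± 0.981) overlapped. With the union of all annotated exons as the length, IRF2BP1 came first in both groups. By this length IRF2BP2 stood above IRF2, and IRF7 above IRF8, in both groups and without overlap between libraries. With AZD4573 the mean of IRF3 stood above that of IRF1 and the mean of IRF9 below that of IRF8. The libraries of IRF3 and IRF1 overlapped, as did those of IRF9 and IRF8. IRF9 also lay below IRF7 with AZD4573, without overlap.

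The make-up of the IRF transcript pool does not depend on the scaling between libraries. IRF1 supplied 51.1% ± 0.155 of the summed TPM of the 8 IRF genes with DMSO and 47.0% ± 3.38 with AZD4573 (SD, n = 3). IRF3 went from 25.3% ± 1.20 to 34.2% ± 2.39, with DMSO libraries at 24.0% to 26.2% and AZD4573 libraries at 32.1% to 36.8%. The share of IRF9 was 7.32% ± 0.165 with DMSO and 3.59% ± 0.561 with AZD4573, also without overlap. IRF2 held 11.1% ± 0.886 and 9.63% ± 0.218, and IRF8 3.15% ± 0.167 and 2.79% ± 0.349. IRF7 held 1.79% ± 0.195 and 2.07% ± 0.229, and the libraries of IRF7 and of IRF8 overlapped between groups. IRF5 went from 0.211% ± 0.0570 to 0.682% ± 0.121, and IRF4 was under 0.03% throughout. The shares of IRF1, IRF2, IRF4 and IRF5 did not overlap between groups either. These shares are given as a description without a test.

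**Figure D4:**
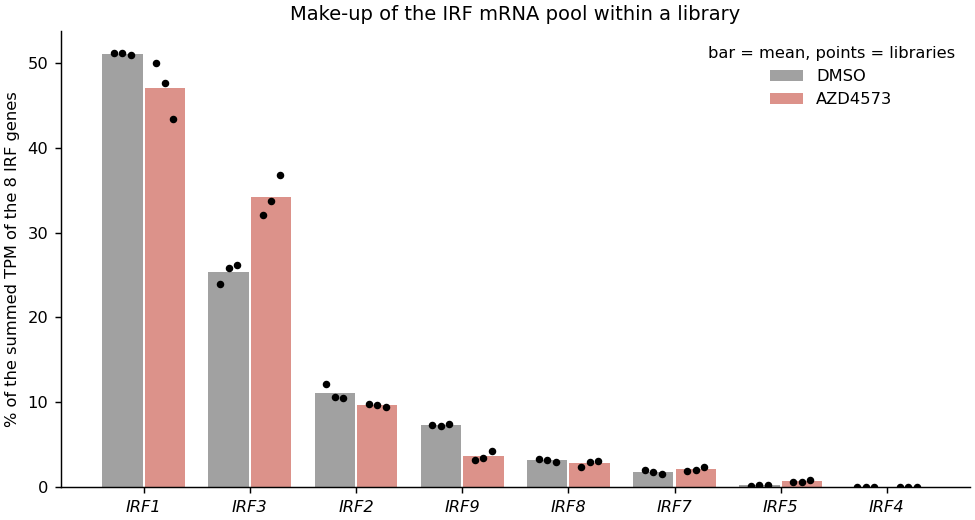
Share of each IRF gene in the summed TPM of the 8 IRF genes (percent, bars are means of 3 libraries, points are libraries, axis from 0). With AZD4573 the shares of IRF3 and IRF5 are higher and those of IRF1, IRF2, IRF4 and IRF9 lower, with no overlap between the libraries of both groups. IRF1 has the largest share in both groups with the canonical mRNA as the length, but not with AZD4573 when the union of exons is used.

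Gene structure was read from GENCODE release 44 on GRCh38. IRF2BP1 (chr19:45883608-45886141, minus strand, 2534 bases) has 1 exon, as do 2.35% of 13366 coding genes tested. Of those 314 single-exon genes, 165 were lower at an adjusted p under 0.05. Among all genes tested, coding or not, 37.4% were lower, and the share over the coding genes alone was not computed. IRF2BP2 has 2 exons, and the others have 8 to 11 against a median of 9. The pentamer ATTTA, the core of AU-rich elements that mark unstable mRNAs, occurs in the 3′ untranslated region of 70.5% of the coding genes tested. IRF4 holds 9 copies, IRF2BP2 8, IRF8 6, IRF1 4, IRF5 2, and IRF2 and IRF2BP1 1 each, whereas IRF3, IRF7 and IRF9 hold none. Per kilobase of this region the copies ranged from 0.972 in IRF2 to 4.53 in IRF8 among the genes that hold any, with 2.34 in IRF4.

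Genes whose profile over the 6 libraries lay nearest to that of a member were listed among 9067 genes of at least 10 CPM, by Euclidean distance of log2 CPM centred on the DMSO mean. For IRF5 these were CACNB3 (distance 0.273), ZNF8 (0.295) and the nuclear RNA NEAT1 (0.300), with log2 fold changes of 1.16, 0.97 and 0.98. For IRF4, which had the lowest fitted log2 fold change, they were RNF13, METTL2B and RBM17, but its CPM lies below the constant of 0.5 added before taking logarithms, which flattens its profile to a fall of about that of these genes (-0.40, -0.37 and -0.36). The same constant flattens the profile of IRF5, at means of 0.928 CPM with DMSO and 2.42 CPM with AZD4573. The fitted log2 fold change of IRF5 was 1.39, above those of its nearest genes. Chosen after the values were seen, IRF9 lay nearest to SLC35A5, BCL9L and PIGA (distances 0.172, 0.189 and 0.201), and IRF2BP1 to PPP1R15A, RIOK2 and SPOPL (0.0357, 0.0507 and 0.0678).

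The genes upstream of the IRFs were read as lists. Of 22 sensors, adaptors and kinases that activate IRF3, IRF5 and IRF7, 20 were tested, of which 11 were lower, 3 higher and 6 did not pass (median log2 fold change -0.33, edgeR adjusted p under 0.05). By the same rule 37.4% of all genes tested were lower and 37.3% higher, and under mitochondrial mRNA scaling 19 of these 20 were lower and 0 higher. The RNA sensor DDX58 (RIG-I) showed the largest fall, from 5.75 ± 0.818 to 1.85 ± 0.478 CPM (SD, n = 3, log2 fold change -1.65, adjusted p = 1.7e-06). The 3 that were higher were DHX58, a regulator of RIG-I (0.83), TRAF3 (0.29) and TANK (0.18), and under mitochondrial mRNA scaling these were 0.09 (not passed), -0.45 and -0.56. TBK1, the kinase of IRF3 and IRF7, was lower at -0.73 (adjusted p = 6.0e-08), and its relative IKBKE at -0.22 (adjusted p = 0.000401), both named after their values were seen.

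Of 21 interferon genes, 18 had 0 counts in all 6 libraries, among them IFNB1 and every type I gene of the list. A count of 0 allows up to 0.0392 CPM in the largest library (DMSO) and up to 0.0576 CPM in the smallest (AZD4573), for counting error only. IFNG, interferon-γ, was the 1 that could be tested, and it fell from 1.09 ± 0.286 to 0.493 ± 0.0558 CPM (SD, n = 3, log2 fold change -1.15, edgeR adjusted p = 0.00164).

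Receptors and JAK-STAT components, which act upstream of IRF9 and IRF1, numbered 11. All were tested, 7 were lower, 3 higher and 1 did not pass (median -0.49, against 37.4% lower and 37.3% higher over all genes), and under mitochondrial mRNA scaling all 11 were lower. The largest fall was that of IFNLR1, a chain of the interferon-λ receptor, from 1.09 ± 0.158 to 0.232 ± 0.0771 CPM (SD, n = 3, log2 fold change -2.21, edgeR adjusted p = 1.7e-05). The other receptor chains, named after their values were seen, were IFNGR1 at -2.001, IFNAR1 at -1.18, IFNAR2 at -1.03 and IFNGR2 at -0.51, so that all 5 chains particular to interferon receptors were lower, while IL10RB, shared with IL-10, was at 0.12 (adjusted p = 0.178). The 3 that were higher were the kinases TYK2 (0.56) and JAK1 (0.49) and STAT2 (0.56), and under mitochondrial mRNA scaling they were lower, at -0.18, -0.25 and -0.18.

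STAT2 and IRF9, partners in ISGF3, were compared per transcript length. With DMSO, STAT2 was at 13.04 ± 1.58 TPM and IRF9 at 25.0 ± 1.40 TPM (SD, n = 3). With AZD4573 the order was turned for IRF9 counted alone, at 16.01 ± 0.541 TPM for STAT2 and 8.31 ± 1.05 TPM for IRF9. The libraries of both genes did not overlap in either group. The turned order depends on how reads were split between IRF9 and its readthrough neighbour. With AZD4573, IRF9 was at 7.16 CPM alone and at 14.4 CPM summed with all reads of that gene, including any from outside IRF9. The order against STAT2 was not computed for the sum or for the union of exons.

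Of 15 inhibitors of interferon signalling, 14 were tested and all passed, 9 lower and 5 higher (median -0.37, against 37.4% lower and 37.3% higher over all genes), and under mitochondrial mRNA scaling 13 were lower and 1 higher. TRIM21, a ubiquitin ligase that acts on IRF proteins, fell most, from 26.8 ± 0.752 to 5.13 ± 0.840 CPM (SD, n = 3, log2 fold change -2.39, edgeR adjusted p = 1.9e-10). CISH, a STAT5-induced SOCS family member, rose from 265 ± 17.1 to 556 ± 44.8 CPM (log2 fold change 1.07, adjusted p = 3.2e-09) and was at 0.33 under mitochondrial mRNA scaling. SOCS3, PTPN11, OTUD5 and CYLD were the others that were higher, and each was lower under that scaling. SOCS1 had 0 counts in all libraries.

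Of 60 interferon-stimulated targets, 56 were tested, of which 24 were lower, 21 higher and 11 did not pass (median -0.15), shares near the 37.4% lower and 37.3% higher over all genes. Under mitochondrial mRNA scaling 50 were lower and 0 higher. The chemokine CXCL10 fell most, from 7.07 ± 0.703 to 0.879 ± 0.157 CPM (SD, n = 3, log2 fold change -3.01, edgeR adjusted p = 1.0e-09). IFI27 showed the largest rise, from 0.285 ± 0.0596 to 0.741 ± 0.227 CPM (1.37, adjusted p = 0.00252), and at 0.65 it did not pass under mitochondrial mRNA scaling. Named after their values were seen, the interferon-induced GTPases GBP1 to GBP5 were all 5 lower, at -2.04 to -0.57. The immunoproteasome subunits PSMB8, PSMB9 and PSMB10 were higher at 0.12 to 0.39 and lower under that scaling at -0.62 to -0.35. Reads may be split with uncertainty between GBP paralogs.

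IRF4 and IRF8 bind many sites only with partners. The list of 17 genes read for this also holds PRDM1 and BCL6, repressors that are not established as such binding partners. Of these 17, 15 were tested, of which 7 were lower, 6 higher and 2 did not pass (median 0.07), shares near the 37.4% lower and 37.3% higher over all genes. Under mitochondrial mRNA scaling 14 were lower and 1 higher. PRDM1, the plasma cell repressor Blimp-1, fell most, from 4.48 ± 0.276 to 0.864 ± 0.102 CPM (SD, n = 3, log2 fold change -2.37, edgeR adjusted p = 7.9e-09). BCL6, which opposes PRDM1, rose from 12.01 ± 0.450 to 51.9 ± 4.51 CPM (log2 fold change 2.11, adjusted p = 4.6e-11) and remained at 1.37 under mitochondrial mRNA scaling. BATF, the AP-1 partner of IRF4 in T cells, was at -1.54 (adjusted p = 6.6e-10), named after its value was seen. The relative IRF2BPL, outside the members, was at 0.22 (adjusted p = 0.00664) and at -0.53 under mitochondrial mRNA scaling.

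**Figure D5:**
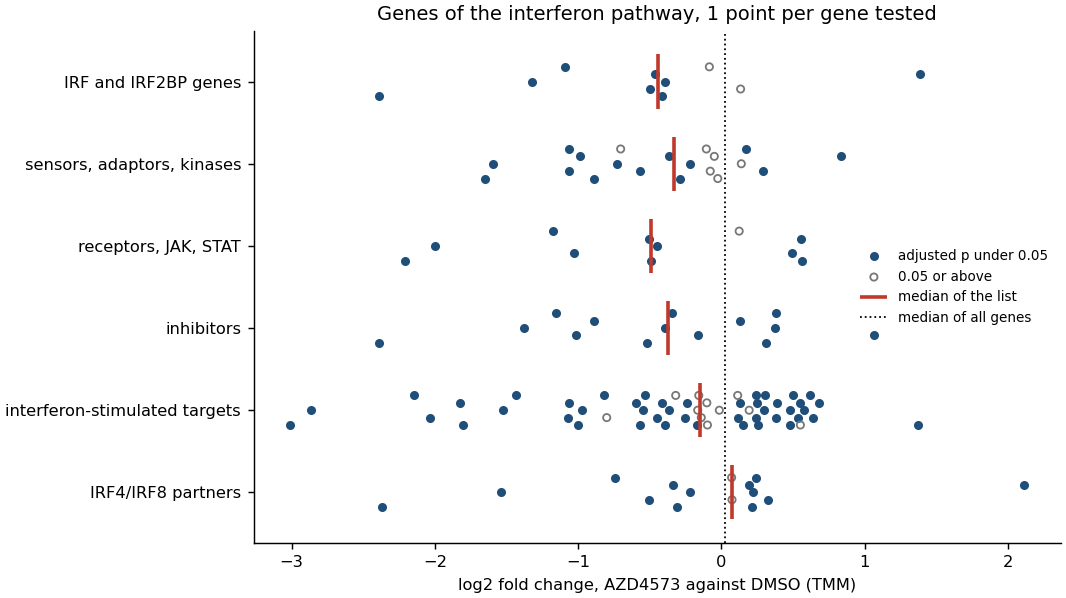
Log2 fold change upon AZD4573 treatment (TMM scaling) of each tested gene of the members and of 5 lists of the interferon pathway, 1 point per gene, filled where the edgeR adjusted p was under 0.05, with the median of each list in red and the median of all genes dotted. The lists hold genes on both sides of 0, with medians from -0.49 for receptors and JAK-STAT genes to 0.07 for the partner list of IRF4 and IRF8. That list also holds PRDM1 and BCL6.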

How the data were processed

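The authors trimmed reads with Cutadapt 2.3, aligned them to GRCh38 with STAR 2.7.8a and estimated counts per gene with RSEM 1.3.3 at default parameters, which ignore strand. The deposited values are expected counts, whole numbers without normalization, and were used as they stand. The labels describe poly(A) RNA, whereas the supplemental methods describe rRNA depletion. The exposure to AZD4573 is 4 h in the labels, which give none for DMSO, and longer in the study's discussion. The authors tested differential expression with DESeq2.

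Here all 6 libraries were compared in R 4.3.3 with edgeR 4.0.16 (TMM, filter on low counts with a minimum count of 10, quasi-likelihood test, Benjamini-Hochberg adjustment over 17678 genes, no block). A gene passed at an adjusted p under 0.05, or with a fold change of at least 1.5 as well. Ratios within a library were compared by exact permutation tests (Python 3.11.15, SciPy 1.17.1). Named genes were the 10 members, the largest fall and rise of each list that passed, lists' calls of 5 or fewer, and the 3 genes nearest in profile to the members with the largest fall and rise. Members and lists were chosen with earlier results of these data known, and the lists were written from general knowledge.

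Alternatives were RLE factors, library size only, scaling to 13 mitochondrial mRNAs, dropping the filter or requiring 10 or more counts in all libraries, omission of single libraries, a replicate block, an unadjusted p and DESeq2 1.42.0, and, chosen after seeing the data, IRF9 summed with its readthrough gene. On simulated data for this comparison, edgeR recovered 170 of 200 changed genes among 17678 and called 12 of 17478 unchanged ones. No library was a copy of another, since chi-square divided by its degrees of freedom was 5.62 to 21.5 for pairs within a group. Without molecular identifiers, intervals and limits reflect counting error alone. Some genes of the lists are counted in them but not reported here by name.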

Additional observations from a re-analysis of the deposited data

How the results depend on the processing

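The falls of IRF1, IRF2, IRF4, IRF8, IRF9, IRF2BP1 and IRF2BP2 and the rise of IRF5 passed at an adjusted p under 0.05 in every alternative that tested them (12 for IRF4, which could not be tested with at least 10 counts in every library, 14 for IRF9, including the sum with its readthrough gene, and 13 for the others). Mitochondrial mRNA scaling changed the most: 9 members were lower by fold, all genes gave 9433 lower and 1769 higher, IRF3 turned to -0.60 and IRF7 passed at -0.83. By adjusted p it gave 19 lower and 0 higher sensors and kinases, 11 and 0 receptors and JAK-STAT genes, 50 and 0 targets, 14 and 1 genes of the partner list, and 1 higher inhibitor. Members higher numbered 2, with IRF3 added, with at least 10 counts in every library (0.17, adjusted p = 0.0216). Leaving out each library in turn gave 7 members lower throughout and 1 to 2 higher (2 without DMSO replicate 3 or AZD4573 replicate 1), 3 lower and 1 higher by fold, 4087 to 4268 genes lower and 3801 to 4006 higher by fold, and log2 differences of 0.0123 to 0.115 for IRF1 to IRF2 and 0.677 to 0.710 for IRF2BP2 to IRF2BP1. Replicate numbers did not pair the libraries (correlations of deviations -0.00724, 0.0707 and -0.0204), and not every library correlated best with its own number. With the replicate block, 7 members were lower and 2 higher, with IRF3 at 0.13 (adjusted p = 0.0240). For IRF3 the adjusted p ranged from 3.2e-07 to 0.701 over all alternatives, and the cause was not tested. Depth limits IRF4 most, at 1 to 16 counts per library.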

Other observations

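Of the 20 coding genes next to the members on the chromosome, 19 were tested, of which 8 were lower, 7 higher and 4 did not pass (edgeR adjusted p under 0.05). These are shares near the 37.4% lower and 37.3% higher over all genes tested. TNPO3, 4141 bases beyond the end of IRF5 on the opposite strand, was at 155 ± 3.07 CPM with DMSO and 80.4 ± 3.07 CPM with AZD4573 (SD, n = 3, log2 fold change -0.95), while IRF5 rose. CDHR5, 593 bases upstream of IRF7 on the same strand, was at 0.387 ± 0.0468 and 2.05 ± 0.172 CPM (log2 fold change 2.40), and PHRF1, 330 bases beyond its other end, was at 178 ± 5.43 and 137 ± 5.56 CPM (-0.37). MYPOP, 3881 bases upstream of IRF2BP1 on the same strand, was at 19.2 ± 0.779 and 9.21 ± 0.832 CPM (-1.06). RNF31, 573 bases upstream of IRF9, was at 50.2 ± 3.96 and 52.3 ± 2.82 CPM (0.06, not passed), and REC8, 3809 bases beyond it, was at 2.38 ± 0.189 and 5.36 ± 0.706 CPM (1.17). Each of these genes was named after its values were seen.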
